A study of Mus musculus with 14 samples.

Results

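The resting difference between lymph nodes without and with the kinase Atm was read from 6 arrays of a series of 14. They were the 3 arrays labelled Atm-/- and untreated (KO, replicates A, B and C) and the 3 labelled Atm+/+ and untreated (WT, replicates A, B and C), and they were chosen by those labels alone. The other 8 arrays came from nodes taken 30 or 120 min after ionizing radiation (IR), 2 per genotype and time, and served for the spread and as a set of KO and WT arrays that shared none with the untreated ones. Each array was hybridised with total RNA of murine lymph node. The labels give no strain, age, sex, radiation dose or kind of Atm disruption, and nothing says whether the replicates were separate animals, so the p-values measure the spread between arrays, which may be technical.

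Atm is a serine/threonine kinase that is activated where DNA double-strand breaks are sensed, and it phosphorylates p53, the checkpoint kinase Chk2 and histone H2AX. In lymphocytes it also stabilises the breaks that are made on purpose when antigen receptor genes are rearranged and when antibody classes are switched. Mice without it have few mature T cells and are prone to thymic lymphoma, and humans without it have ataxia-telangiectasia with immune deficiency. The 2 genotypes at rest therefore raise the question of T cell content, antibody genes and genes of chronic stress before any dose is given.

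The values are deposited intensities of Affymetrix probe sets, and the array medians lay between 61 and 80.4. A difference is the KO mean minus the WT mean on the log2(value + 32) scale after quantile normalization, which understates changes of low genes, and it is given ± its standard error from limma. Adjusted p-values are Benjamini-Hochberg values over the 8938 probe sets tested. The median standard error of an untreated difference was 0.207, and the number of arrays limits the precision. WT untreated A was among the 3 arrays with the lowest median correlation with the others (0.928, beside 0.910 for KO IR30 A and 0.936 for KO IR120 A). The ratio of the 3 prime to the 5 prime Gapdh control, a measure of RNA quality, was 0.896, 0.867 and 0.976 on the KO untreated arrays against 0.958, 0.902 and 1.01 on the WT untreated arrays. Salivary gland genes were bright on arrays labelled lymph node, and the summed intensity of 11 of them was 49817 to 65597 on the KO untreated arrays and 59057 to 64654 on the WT untreated arrays. Lymphocyte markers were present beside them, with a sum over 23 T cell genes of 1652 to 1919 and 2113 to 2281 on the same arrays and a sum over 18 B cell genes of 2690 to 3592 and 3258 to 4038. Among the T cell markers Cd3g, Cd8a, Ctla4 and Gata3 were too low to be tested.

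No probe set passed the test between untreated genotypes. With limma, 0 of 8938 had an adjusted p under 0.05 (0%), the smallest adjusted p being 0.635. At an unadjusted p under 0.05 there were 489, or 5.47%, beside the 446.9 that a uniform p would give, 267 of them higher and 222 lower in KO. All 3 KO arrays lay above all 3 WT arrays for 497 probe sets (5.56%) and below them for 456 (5.1%), or 10.7% in either direction. The median size of a difference was 0.147, and 41 probe sets differed by more than 1 on the log2 scale, of which 31 were higher and 10 lower in KO. The named genes below are therefore differences that did not pass the test, described by their values.

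Atm itself was read by 1 probe set (101180_at) near the bottom of the scale. Its intensity was 44.0, 7.5 and 24 on the KO untreated arrays A, B and C and 54.8, 34.5 and 8.1 on the WT untreated arrays. The groups overlapped, and the difference was -0.17 ± 0.33 (adjusted p = 0.988 by limma). It took a positive sign without WT A (0.0618) or without KO B (0.0839). The labels do not say which part of Atm was disrupted or whether the probes fall inside it, and the genotype cannot be checked by this probe set.

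The 24 genes with the smallest p were 9 higher and 15 lower in KO, and their groups did not overlap, which is a description since they were chosen by p. Each had an adjusted p of 0.635. Among those higher in KO, 4 encode proteins of skeletal muscle: Ckm (muscle creatine kinase, 161569_f_at), Pvalb (the calcium buffer parvalbumin), Pygm (muscle glycogen phosphorylase) and Myom2 (a protein of the sarcomere's M band). Among those lower in KO, 3 belong to T cells and 1 to antibody. The T cell genes are Cd3e (a signalling subunit of the T cell receptor complex), Trav9d-3 (a variable segment of the T cell receptor alpha chain) and Il7r (the receptor of the survival cytokine interleukin 7). The antibody gene is Ighm, as the annotation names probe set 99420_at, after the heavy chain of IgM. Another probe set named Ighm (93583_s_at) was higher in KO, by 0.69 ± 0.26. The remaining 16 are none of these.

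**Figure D1:**
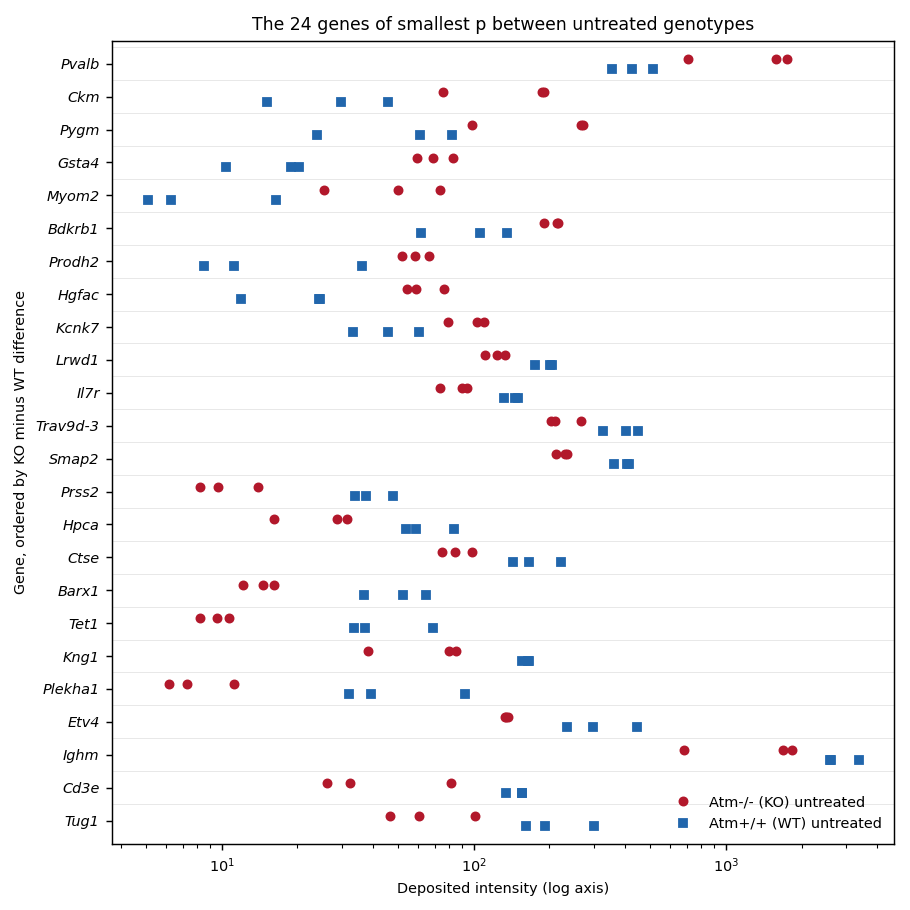
Deposited intensity (log axis) of the 24 genes with the smallest p on the 3 KO untreated arrays (red circles) and the 3 WT untreated arrays (blue squares), ordered by the KO minus WT difference. The groups do not overlap for any of the 24, with 9 genes higher and 15 lower in KO, and each has an adjusted p of 0.635.

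Gsta4, a glutathione transferase that clears products of lipid peroxidation, had intensities of 69.0, 83.2 and 59.5 on the KO untreated arrays and 20.3, 10.4 and 18.9 on the WT untreated arrays. The KO arrays stood above the WT arrays by 1.10 ± 0.21. Bdkrb1, the inducible bradykinin receptor, had 213.3, 216.4 and 190.5 on the KO arrays against 61.6, 105.7 and 135.1 on the WT arrays, a difference of 0.90 ± 0.21. The remaining genes higher in KO, with differences between 0.72 and 0.90, were Kcnk7 (a potassium channel subunit), Hgfac (the protease that activates hepatocyte growth factor) and Prodh2 (hydroxyproline dehydrogenase).

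Tug1, a long noncoding RNA, was the gene with the smallest p of all. Its probe set 161749_r_at had 60.7, 46.5 and 101.7 on the KO arrays and 301.1, 191.6 and 160.9 on the WT arrays, a difference of -1.32 ± 0.25. A second Tug1 probe set (103400_at) was lower in KO as well, by -0.31 ± 0.20. Kng1, the kininogen from which bradykinin is cut, had 38.2, 85.1 and 80.0 on the KO arrays against 155.0, 163.8 and 165.4 on the WT arrays, a difference of -0.998 ± 0.205. The KO untreated arrays thus stood lower for Kng1 and higher for Bdkrb1, though neither passed the test. On the irradiated arrays both had the opposite sign, Kng1 at 0.14 ± 0.18 and Bdkrb1 at -0.21 ± 0.18. Smap2, a GTPase-activating protein for Arf, had 233.8, 230.7 and 212.6 on the KO arrays against 412.2, 360.3 and 407.0 on the WT arrays, a difference of -0.71 ± 0.15. Smap2 varied little within each group. The other genes lower in KO, with differences between -1.07 and -0.55, were Hpca (the neuronal calcium sensor hippocalcin), Barx1 (a homeobox factor), Prss2 (a trypsin), Plekha1 (a phosphoinositide-binding adaptor), Ctse (the protease cathepsin E), Tet1 (an enzyme that oxidises 5-methylcytosine), Etv4 (an ETS factor) and Lrwd1 (a partner of the origin recognition complex). Second probe sets differed in sign for Etv4 (92979_at, 0.43 ± 0.23) and Plekha1 (94359_at, 0.08 ± 0.16), and for Ctse 1 of 2 others did (93861_f_at, 0.05 ± 0.22).

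Skeletal muscle genes held many of the larger differences, with the KO arrays higher, and 17 of the 46 tested differed by more than 1 on the log2 scale. Of the genes of the contractile apparatus 28 were measured and 19 tested, and their median difference was 0.90 beside a median of 1.04e-05 over all 8938 probe sets. A group is called apart here when its normalized values do not overlap those of the other genotype. The difference was above 0 for 18 of the 19, 9 had KO arrays that all lay above the WT arrays (47.4% beside 5.56% of all probe sets), and 11 had an unadjusted p under 0.05, with 0 called. Of the genes for calcium handling and energy supply in muscle 28 were measured and 27 tested. Their median difference was 0.31, with 24 above 0, 6 apart and higher in KO (22.2% beside 5.56% of all probe sets), 12 with an unadjusted p under 0.05 and 0 called.

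Skeletal muscle contracts when calcium leaves its sarcoplasmic reticulum through the ryanodine receptor Ryr1, frees actin through the troponins, and is pumped back by the ATPase Atp2a1. Fast fibres use the myosin heavy chains Myh1 and Myh4 and draw on creatine phosphate and glycogen. Acta1, the skeletal muscle actin, had intensities of 2965, 1253.3 and 3968.7 on the KO untreated arrays and 1029.7, 646.5 and 314.5 on the WT untreated arrays, a difference of 2.05 ± 0.64 (adjusted p = 0.713). The KO arrays lay above the WT arrays, but KO B was close to WT A. Myh1 had 320, 33.6 and 430.9 on the KO arrays against 40.4, 27.2 and 23.5 on the WT arrays, a difference of 1.81 ± 0.58 (adjusted p = 0.779). Here KO A and C were high and KO B lay inside the WT range. Myl1, a fast myosin light chain, had 1330.4, 409.3 and 1493.9 on the KO arrays and 316.1, 256.1 and 215.8 on the WT arrays, a difference of 1.75 ± 0.52 (adjusted p = 0.708). Tnnt3, the fast troponin T, had 537, 112.9 and 557.7 on the KO arrays against 138, 61.3 and 66.3 on the WT arrays, a difference of 1.66 ± 0.50 (adjusted p = 0.708). The same 2 KO arrays were the high ones for both genes. Myh4 (1.40), Tpm2 (a tropomyosin, 1.36), Tnnc2 (fast troponin C, 1.17), Mylpf (the regulatory light chain of fast fibres, 0.90), Tnni2 (fast troponin I, 0.90) and Des (the intermediate filament desmin, 0.47) were likewise higher in KO with unadjusted p-values under 0.05. Second probe sets of Myh4 (161545_r_at, -0.07 ± 0.24) and Tpm2 (161320_r_at, -0.06 ± 0.50) did not differ in that direction. The more widely expressed tropomyosin Tpm1 differed by 0.08 ± 0.15.

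Atp2a1 (98126_s_at) had 1386.3, 431.5 and 1589.7 on the KO untreated arrays and 468.5, 122 and 99.3 on the WT untreated arrays, a difference of 2.26 ± 0.65 (adjusted p = 0.697). This was the largest difference of any muscle gene tested, and its second probe set (162223_f_at) differed by 1.90 ± 0.65. Ckm (161569_f_at) had 191.1, 75.4 and 186.2 on the KO arrays against 45.6, 29.7 and 15.1 on the WT arrays, a difference of 1.51 ± 0.33, while its second probe set (160175_at) differed by 0.22 ± 0.26. Pvalb had 1577.1, 707.4 and 1756.9 on the KO arrays and 513, 426.4 and 353.9 on the WT arrays, a difference of 1.53 ± 0.34. Ckm and Pvalb were among the genes whose KO arrays, B included, all lay above WT. Mb, the oxygen store myoglobin, had 225.6, 9.8 and 181.9 on the KO arrays against 16.1, 9 and 2.9 on the WT arrays, a difference of 1.72 ± 0.52 (adjusted p = 0.708). Myoglobin was near the bottom of the scale on KO B and on all WT arrays. Also higher in KO with unadjusted p-values under 0.05 were Cox6a2 (the muscle form of a cytochrome oxidase subunit, 1.73), Ckmt2 (mitochondrial creatine kinase of muscle, 1.56), Pygm (1.43), Pgam2 (a muscle phosphoglycerate mutase, 1.30), Eno3 (muscle enolase, 1.21), Casq1 (the calcium store protein calsequestrin, 1.04), Ryr1 (0.87) and Cacng1 (a calcium channel subunit of muscle, 0.52). Sln, the small inhibitor of the calcium pump, had the opposite sign at -0.39 ± 0.29, and Myod1, a transcription factor that sets the muscle fate, differed by 0.19 ± 0.19.

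**Figure D2:**
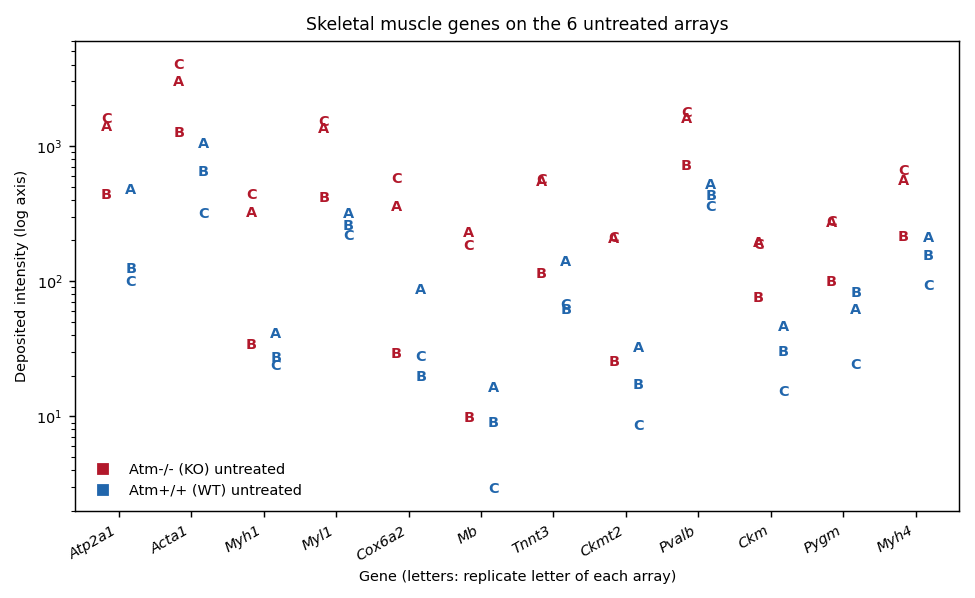
Deposited intensity (log axis) of the 12 skeletal muscle genes with the largest KO minus WT difference on the 6 untreated arrays, each array shown by its replicate letter, KO in red and WT in blue. For these genes KO A and C lie above the WT arrays, while KO B lies within or just above the WT range, as for Myh1 with 33.6 on KO B, 320 and 430.9 on KO A and C, and 23.5 to 40.4 on the WT arrays.

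The excess of muscle genes was thus largest on KO untreated A and C and smaller on KO B. All 3 KO arrays, B included, lay above all WT arrays for 15 of the 46 muscle genes tested (32.6% beside 5.56% of all probe sets). Among the 46, KO A and C both lay above all WT arrays for 32. KO B was the lowest KO array for 37 and fell within the WT range for 22. These 3 counts were not made over all probe sets. For the 40 tested genes nearest to Atm, a list set by position, they were 5, 17 and 19. The summed intensity of the 56 measured muscle genes was 17761, 8483 and 20632 on the KO untreated arrays A, B and C and 8153, 6678 and 5317 on the WT untreated arrays. With KO B left out, 7 probe sets were called between untreated genotypes (0.0783%), which were Mb, Myh1, Ckmt2, Pgam2, Pvalb, Cox6a2 and Ak1, an adenylate kinase that is abundant in muscle. Of the 7 genes 6 stand in the muscle lists. KO B was the KO array with the lowest muscle sum. Leaving it out raises the KO mean of genes that are low on KO B and narrows their KO spread. The 7 calls are therefore no separate support for a muscle difference. Mb and Myh1 passed the filter on low values through KO arrays alone, so for them a difference was built in, as for 4 of the 46 muscle genes tested (with Myom2 and Ldb3). In these bulk samples more cells of a type and more RNA per cell cannot be told apart, and the source of the muscle RNA was not tested.

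The irradiated arrays showed no such excess. The muscle sum was 5073 to 8926 on the 4 KO irradiated arrays and 6581 to 8613 on the 4 WT irradiated arrays. The median KO minus WT difference there was -0.12 for the contractile list and -0.02 for the calcium and energy list. No muscle gene was called in the test of the irradiated minus the untreated genotype difference, so a difference between the 2 sets of arrays was not shown for any of them.

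**Figure D3:**
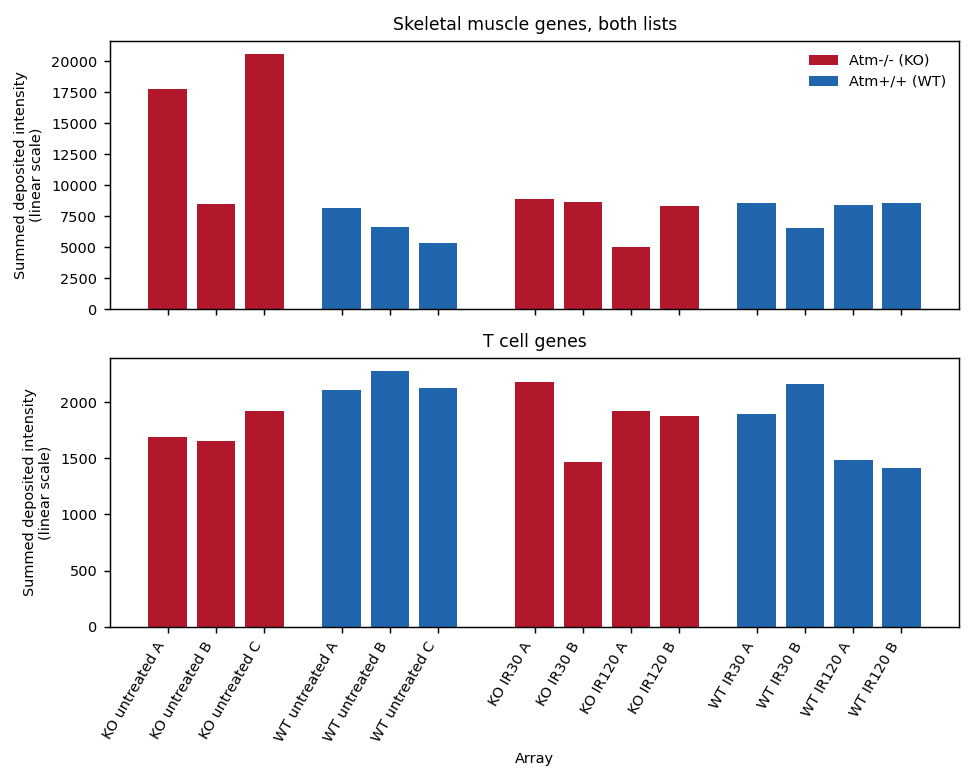
Summed deposited intensity (linear scale) of the 56 measured skeletal muscle genes (top) and the 23 measured T cell genes (bottom) on each of the 14 arrays, KO in red and WT in blue, untreated arrays left and irradiated arrays right. The muscle sum is 17761 and 20632 on KO untreated A and C and at most 8926 on the other arrays, and the T cell sum is 1652 to 1919 on the KO untreated arrays against 2113 to 2281 on the WT untreated arrays.

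The 250 bases before the start of 3 skeletal muscle genes are shown, with those of the T cell gene Cd3e beside them. They are RefSeq sequences of the build GRCm38.p6, written along the gene's strand. Capitals mark CAGCTG, a form of the E-box that myogenic factors such as MyoD bind, and it reads the same on both strands.
Ckm, chr7:19410844-19411093, plus strand: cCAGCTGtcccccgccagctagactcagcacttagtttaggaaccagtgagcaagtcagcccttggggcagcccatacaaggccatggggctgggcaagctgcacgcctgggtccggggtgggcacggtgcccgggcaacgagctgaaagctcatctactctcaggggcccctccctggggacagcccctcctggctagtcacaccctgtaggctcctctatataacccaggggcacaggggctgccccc
Atp2a1, chr7:126463074-126463323, minus strand: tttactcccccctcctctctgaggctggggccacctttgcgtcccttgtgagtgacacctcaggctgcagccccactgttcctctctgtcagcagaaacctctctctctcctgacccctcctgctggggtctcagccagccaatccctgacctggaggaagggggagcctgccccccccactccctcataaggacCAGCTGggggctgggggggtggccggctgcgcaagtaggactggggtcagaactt
Pygm, chr19:6384158-6384407, plus strand: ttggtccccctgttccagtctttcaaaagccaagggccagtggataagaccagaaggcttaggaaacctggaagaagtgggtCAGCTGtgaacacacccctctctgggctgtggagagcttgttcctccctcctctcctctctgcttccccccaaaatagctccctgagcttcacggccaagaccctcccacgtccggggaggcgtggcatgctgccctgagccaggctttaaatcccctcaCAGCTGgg
Cd3e, chr9:45009612-45009861, minus strand: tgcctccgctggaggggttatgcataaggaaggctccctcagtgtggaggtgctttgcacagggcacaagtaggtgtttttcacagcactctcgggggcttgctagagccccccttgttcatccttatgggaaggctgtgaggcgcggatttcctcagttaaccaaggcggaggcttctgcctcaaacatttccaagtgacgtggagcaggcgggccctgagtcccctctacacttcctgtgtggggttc
The 6 letters occur 1 time in the windows of Ckm and Atp2a1 and 2 times in that of Pygm, and 0 times in that of Cd3e. Of the 46 muscle genes tested 33 had a promoter entry, with 42 starts in all, and 21 of these (50%) held CAGCTG within the 250 bases. The share was 13% over all 32851 promoters in the table and 6.25% (1 of 16) for the T cell list, of which 10 of 19 genes had an entry. A match describes the letters and does not show binding. The lists were made by cell type, so these shares do not bear on the genotype difference, and regulation by myogenic factors was not tested.

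Genes of T cells were lower in KO by a smaller amount. Of 23 T cell genes measured 19 were tested, their median difference was -0.31 beside 1.04e-05 over all probe sets, and 16 of the 19 were below 0, with 0 called. KO arrays all lay below WT arrays for 5 (26.3% beside 5.1% of all probe sets) and above them for 2 (10.5% beside 5.56%), and 4 had an unadjusted p under 0.05. The median was -0.17 without KO B and -0.19 with the Gapdh ratio as a covariate. The mean log2 level of the tested T cell genes was 6.55, 6.53 and 6.75 on the KO untreated arrays A, B and C and 6.92, 6.90 and 6.90 on the WT untreated arrays.

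The T cell receptor reaches the cell surface and signals through the CD3 chains. Cd3e had intensities of 32.2, 81.5 and 26.2 on the KO untreated arrays and 156.1, 155.3 and 134.5 on the WT untreated arrays, a difference of -1.28 ± 0.32 (adjusted p = 0.635). The groups were far apart, and KO B was the KO array nearest to WT. Cd3d, the CD3 delta chain, had 36.3, 39.3 and 40.9 on the KO arrays against 60.2, 45.9 and 62.6 on the WT arrays, a difference of -0.34 ± 0.15. Cd247, the zeta chain, overlapped between groups and differed by -0.52 ± 0.29, and its second probe set (102288_at) by 0.25 ± 0.29.

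Of 12 probe sets for variable, joining or constant segments of the T cell receptor 7 were tested, all 7 had differences below 0, and the median was -0.39. They were gathered with results known. Trav9d-3 (97945_at) had 266.1, 210.1 and 203.5 on the KO untreated arrays and 326.7, 449.5 and 400.8 on the WT untreated arrays, a difference of -0.71 ± 0.18 (adjusted p = 0.635). Trbv1 (93105_s_at), a beta chain segment, had 389.3, 349.7 and 480.3 on the KO arrays against 612.9, 765.2 and 481.8 on the WT arrays, a difference of -0.58 ± 0.19 (adjusted p = 0.819). Its KO C and WT C arrays were nearly level. Trbv13-2 was lower in KO with both probe sets, by -0.47 ± 0.18 (101279_f_at) and -0.18 ± 0.16 (94202_at).

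Il7r, the survival receptor of naive and memory T cells, had 73.4, 89.7 and 94.1 on the KO untreated arrays and 145.8, 150.4 and 132.4 on the WT untreated arrays, a difference of -0.59 ± 0.15 (adjusted p = 0.635). All 3 KO arrays were lower. Cd27, a costimulatory receptor, had 114.5, 79.6 and 83.9 on the KO arrays against 115.1, 147.1 and 132.3 on the WT arrays, a difference of -0.41 ± 0.18. KO A and WT A were level for Cd27, and its groups were apart by less than 1 intensity unit. The inhibitory receptor Cd5 (-0.71 ± 0.42) and the CD8 beta chain Cd8b1 (-0.56 ± 0.39) had groups that overlapped, as had the homing receptor Ccr7 (-0.37 ± 0.18). Members above 0 were Cd4, the co-receptor of helper cells (0.18 ± 0.25), Thy1, a surface protein that stromal cells carry too (0.19 ± 0.14), and Lat, a signalling adaptor (0.16 ± 0.25). Thy1 and Lat were the 2 genes whose KO arrays all lay above WT after normalization, while the deposited values of Lat (133.8, 131.3 and 170.5 on the KO arrays, 126.6, 132.2 and 118.7 on the WT arrays) overlapped.

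On the irradiated arrays the T cell genes did not lean one way. Their median difference was 0.02, with 11 above and 8 below 0, and that of the T cell receptor segments was -0.0030. Cd3e differed there by -0.04 ± 0.28 and Trav9d-3 by -0.04 ± 0.16, while Il7r was lower by -0.30 ± 0.13 (adjusted p = 0.723). The T cell sum was 1466 to 2177 on the KO irradiated arrays and 1413 to 2163 on the WT irradiated arrays. The difference between the untreated and the irradiated genotype effect was not called for any T cell gene. At rest the muscle genes were highest on KO A and C, and the T cell sum was lower on all 3 KO arrays than on the WT arrays. With the muscle level as a covariate the T cell median was -0.29.

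**Figure D4:**
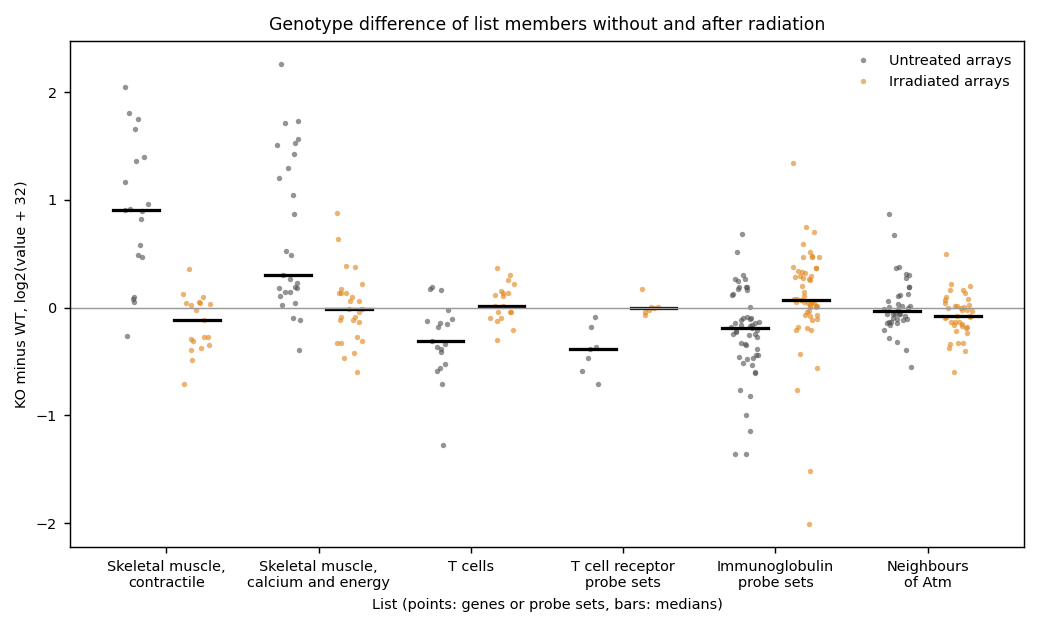
KO minus WT difference (log2(value + 32) scale) of the tested genes or probe sets of 6 lists on the untreated arrays (grey) and on the irradiated arrays (orange), with black bars at the medians. The contractile muscle median is 0.90 untreated and -0.12 irradiated, the T cell median -0.31 and 0.02, and the T cell receptor median -0.39 and -0.0030.

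Some probe sets of the antibody heavy chain genes Igha and Ighm were called on the irradiated arrays. Their untreated differences had the same sign, but none of those passed the test. Igha, the constant region of IgA, had intensities (100583_at) of 578.5, 1812.1 and 2126.3 on the KO untreated arrays and 3236.4, 3140.9 and 3631.2 on the WT untreated arrays, a difference of -1.36 ± 0.37 (adjusted p = 0.667). All KO arrays were lower and KO A was the lowest. On the irradiated arrays Igha had 457.1, 829.8, 768 and 523.9 in KO against 3372.9, 3293.6, 2294.6 and 2159 in WT (30 min A and B, then 120 min A and B), a difference of -2.01 ± 0.32 (adjusted p = 0.0220). It was lower in KO by 0.65 more than on the untreated arrays, and the test of that change gave an adjusted p of 0.912. A second Igha probe set (161486_f_at) was lower in KO as well, by -0.51 ± 0.20 untreated and -0.76 ± 0.17 irradiated, neither called.

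Ighm was split. Its probe set 99420_at had 682.3, 1695.5 and 1841.8 on the KO untreated arrays and 2599.3, 2616.5 and 3376.9 on the WT untreated arrays, a difference of -1.14 ± 0.29 (adjusted p = 0.635), and on the irradiated arrays it fell by 1.52 ± 0.25 in KO relative to WT (adjusted p = 0.0251). Its probe set 93583_s_at went the other way, with 1502.7, 1861 and 1207.6 on the KO untreated arrays against 660.4, 1295.7 and 999.4 on the WT untreated arrays. The KO arrays were higher by 0.69 ± 0.26 there (adjusted p = 0.867) and by 1.34 ± 0.23 on the irradiated arrays (adjusted p = 0.0273). Of 16 probe sets that the annotation names Ighm 11 were tested, 7 with differences below and 4 above 0. Among them 101870_at differed by -1.36 ± 0.92 untreated, with groups that overlapped. At lower intensities 99885_at differed by -0.82 ± 0.30, with groups apart. On the irradiated arrays these 2 differed by 0.0084 and 0.0058. The annotation does not say which part of the transcript each probe set reads. The irradiated call of Igha ended under 7 of the 14 settings that left out an array (adjusted p up to 0.108) and under 2 of 14 others, the Gapdh covariate and the fit without the 3 arrays of lowest correlation (up to 0.228). That of Ighm 99420_at ended under 7 (up to 0.149) and under 4 others (up to 0.229), which were the same 2, an offset of 16 and array weights. That of Ighm 93583_s_at ended under 8 (up to 0.171) and under 5 others (up to 0.198), among them the replicate block (0.0844) and the T cell covariate (0.0555).

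**Figure D5:**
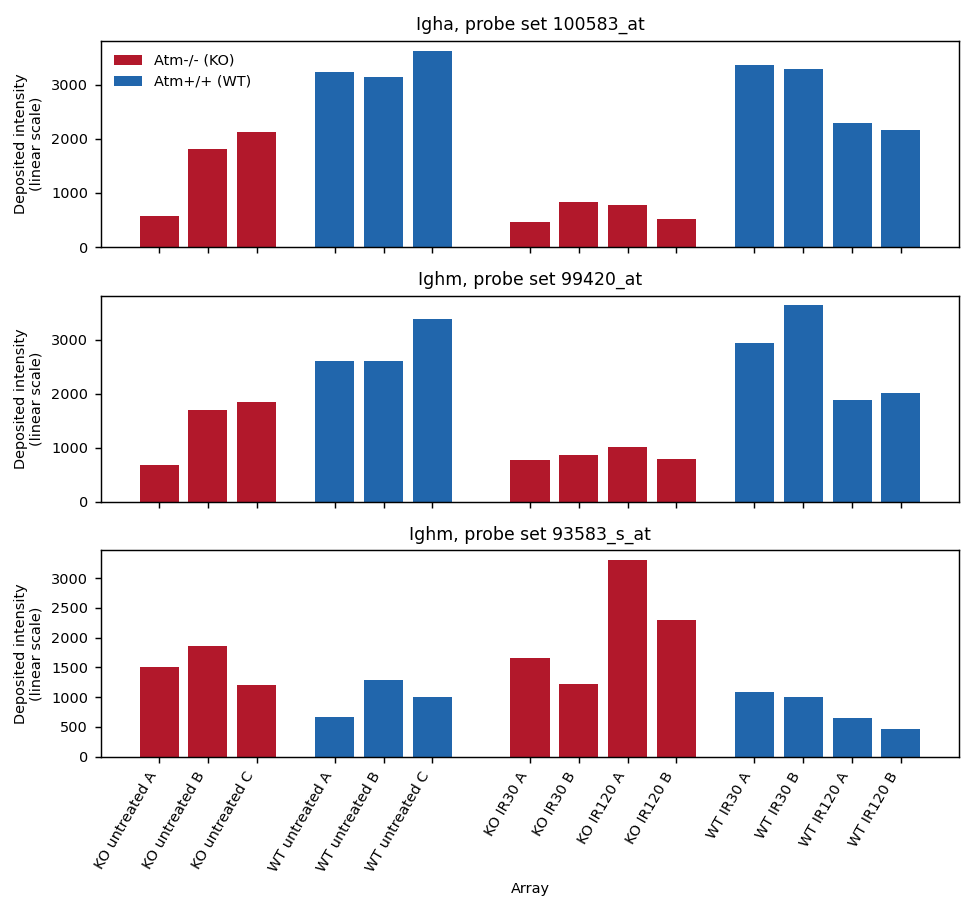
Deposited intensity (linear scale) of 1 Igha and 2 Ighm probe sets on each of the 14 arrays, KO in red and WT in blue, untreated arrays left and irradiated arrays right. Igha is 578.5 to 2126.3 on the KO untreated arrays against 3140.9 to 3631.2 on the WT untreated arrays, and the 2 Ighm probe sets differ in opposite directions.

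Other antibody genes differed less. Of 67 immunoglobulin and Jchain probe sets 53 were tested, with a median difference of -0.19 untreated and 0.07 irradiated. The 22 tested kappa variable probe sets had a median of -0.22, and 19 were below 0. Jchain, which joins the units of IgA and IgM, had 548.8, 1155.8 and 906.9 on the KO untreated arrays and 958.1, 1006.6 and 1237.1 on the WT untreated arrays, a difference of -0.35 ± 0.29. Its groups overlapped. The plasma cell list, Ighm included, had a median of -0.07 over 8 tested genes, with 3 above 0. Of the 8, 1, Ighm, was apart and lower (12.5% beside 5.1% of all probe sets). The B cell list had a median of -0.13 over 18, with 1 gene apart and higher (5.56%, as over all probe sets) and 2 apart and lower (11.1% beside 5.1%). Its largest members were Cd79b, a signalling chain of the B cell receptor (-0.46 ± 0.24), and H2-Ob, which tunes class II loading (-0.38 ± 0.16).

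The genes of antigen receptor rearrangement and class switching, Igha and Ighm included, had a median of -0.32 over 11 tested. Of these 4 were apart and lower in KO (36.4% beside 5.1% of all probe sets) and 1 apart and higher (9.09% beside 5.56%). Rag1, part of the recombinase that cuts antigen receptor genes, had 107, 156.3 and 93.8 on the KO untreated arrays and 297.6, 228.3 and 149.9 on the WT untreated arrays, a difference of -0.76 ± 0.37 (adjusted p = 0.928). The groups overlapped by 1 array.

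Among genes that process DNA breaks the median difference was near 0, while some members were apart between the genotypes. The list of break sensing and repair had 16 tested genes, a median of -0.05, 1 apart and higher (6.25% beside 5.56% of all probe sets) and 3 apart and lower (18.8% beside 5.1%). Prkdc, the catalytic subunit of the kinase DNA-PK and a relative of Atm, had 12.2, 10.2 and 24.6 on the KO untreated arrays and 69.1, 31.7 and 54.7 on the WT untreated arrays, a difference of -0.82 ± 0.28 (adjusted p = 0.821). Its level was low in both groups, and on the irradiated arrays it differed by -0.00047. Xrcc5, the Ku80 subunit that recruits Prkdc to ends, was higher in KO by 0.55 ± 0.23.

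The p53 targets had a median of 0.02 over 19 tested genes. Cdkn1a, the inhibitor p21 of cyclin-dependent kinases, had intensities (94881_at) of 67.2, 91.5 and 81.7 on the KO untreated arrays and 52, 32.3 and 7.1 on the WT untreated arrays, a difference of 0.90 ± 0.23 (adjusted p = 0.635). The groups did not overlap, but the second Cdkn1a probe set (98067_at) differed by -0.28 ± 0.25. Rrm2b, the p53-induced ribonucleotide reductase subunit, was lower in KO at -0.65 ± 0.23. Cdkn2a, the locus of the senescence proteins p16 and Arf, had 77.5, 84 and 83.7 on the KO arrays against 26.9, 66.8 and 8.3 on the WT arrays, a difference of 0.90 ± 0.31 (adjusted p = 0.821). The KO arrays were level with each other and the WT arrays were not. The senescence list as a whole had a median of -0.16 over 16 tested genes, with Igfbp4, a binding protein of insulin-like growth factors, at -0.78 ± 0.34.

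Lists for chronic stress and inflammation lay near 0. The antioxidant list had a median of 0.05 over 26 tested genes, and after Gsta4 its largest difference was that of Mt2, a metallothionein, at 0.30. The interferon-stimulated genes had a median of -0.11 over 30, with 0 apart and higher and 2 apart and lower (6.67% beside 5.1% of all probe sets), Irf9 (-0.44 ± 0.25) and Irgm1 (-0.32 ± 0.16). The NF-kB targets had a median of 0.01 over 21, with the subunit gene Nfkb2 at -0.66 ± 0.25. The immediate-early genes had a median of 0.04 over 26, and 5 were apart and lower in KO (19.2% beside 5.1% of all probe sets), Jund, Jun and Ier2 among them. Replication genes had a median of 0.07 over 33, with Rrm1, the large ribonucleotide reductase subunit, at 0.74 ± 0.27. Apoptosis regulators had a median of 0.07 over 29, and Bik, a death-promoting member of the Bcl-2 family, had 97, 85.3 and 88.9 on the KO arrays against 31.1, 48.1 and 16.4 on the WT arrays, a difference of 0.97 ± 0.39 (adjusted p = 0.903).

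Lymphocyte chemokines and their receptors had a median of -0.07 over 16 genes. Ccr6, the receptor that draws B and Th17 cells to Ccl20, had 108.6, 90.1 and 204 on the KO untreated arrays and 72.3, 83.9 and 13.2 on the WT untreated arrays, a difference of 0.95 ± 0.39 (adjusted p = 0.903). It was higher in KO on the irradiated arrays too, by 0.98. Cxcl12, the stromal chemokine that retains lymphocytes, was higher in KO by 0.57 ± 0.24 (0.12 ± 0.16 with a second probe set), and Glycam1, a ligand on the high endothelial vessels of lymph nodes, by 0.59 ± 0.28. Neither was called.

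Genes next to Atm can carry alleles of the strain in which a mutation was made, so the 20 tested genes on each side were read. The 40 had a median of -0.03, with 17 above and 23 below 0, 4 apart and higher (10% beside 5.56% of all probe sets) and 1 apart and lower in KO (2.5% beside 5.1%), and 0 called. The largest difference was that of Hspb2, a small heat shock protein of muscle, with 154.4, 110 and 136.3 on the KO arrays against 43.6, 58.3 and 78 on the WT arrays (0.87 ± 0.30, adjusted p = 0.821). Cyp1a2, a cytochrome P450, was next at 0.67 ± 0.34, with 83.7, 25 and 44.9 on the KO arrays against 19.7, 19.1 and 15.7 on the WT arrays (adjusted p = 0.949). Sdhd, a subunit of succinate dehydrogenase, had 666.4, 492.6 and 702.9 on the KO arrays against 964.3, 966.9 and 791.6 on the WT arrays (-0.55 ± 0.21, adjusted p = 0.861). The groups were apart for all 3, with Hspb2 and Cyp1a2 higher and Sdhd lower in KO.

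The irradiated arrays gave a second reading of the genotype difference. There 24 probe sets of 21 genes were called (0.269%), 23 lower and 1 higher in KO. Of the 489 probe sets with an unadjusted p under 0.05 at rest, 53.4% had the same sign on the irradiated arrays, beside 49.6% of all probe sets. Of the 24 genes of smallest p, 11 had the same sign there, and 1, Ighm, was called. Tug1 (0.40 ± 0.21), Kcnk7 (-0.31 ± 0.14) and Lrwd1 (0.20 ± 0.12) had irradiated groups apart in the direction opposite to that at rest. Both sets of arrays were apart in the same direction for 20 probe sets, 11 lower (2.41% of those lower at rest, beside 2.01% of all probe sets lower after radiation) and 9 higher (1.81%, beside 1.4%). They were apart in opposite directions for 11 probe sets. KO was higher at rest and lower after radiation for 7 (1.41% of those higher at rest, beside 2.01% of all probe sets). It was lower at rest and higher after radiation for 4 (0.877%, beside 1.4%).

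Of these 20, 4 were called on the irradiated arrays, which were Igha, Ighm (99420_at) and the early response genes Ier2 and Egr1. Ier2 had 198.6, 205.9 and 199.8 on the KO untreated arrays and 259.5, 220.2 and 271.6 on the WT untreated arrays, a difference of -0.26 ± 0.14. Egr1, a zinc finger factor, had 126, 102.9 and 119.1 on the KO arrays against 141.5, 146.1 and 135.1 on the WT arrays, a difference of -0.24 ± 0.14. Jun, a subunit of AP-1, had 47, 59.6 and 57.8 on the KO arrays against 63.1, 88.2 and 90.6 on the WT arrays, a difference of -0.38 ± 0.18. These 3 were lower in KO at rest by small amounts, with adjusted p-values of 0.964, 0.973 and 0.922 by limma. Among those higher in both, St3gal1, a sialyltransferase, had 889, 905 and 900.9 on the KO untreated arrays against 606.1, 741 and 764.6 on the WT untreated arrays, a difference of 0.35 ± 0.14.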

How the data were processed

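Total RNA labelled as murine lymph node was hybridised to 14 one-colour Affymetrix arrays, and the titles gave the groups. Each deposited value is an intensity of 1 probe set on a linear scale (0 to 15198.3), and the labels name no software for it. The mean without the highest and lowest 2% was 150.1 on each array, so the authors had scaled the arrays alike. Probe set names came from the platform annotation, updated by Entrez ID.

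Values were taken as log2(value + 32) and quantile normalised. Of 12422 probe sets that are not controls (12488 in all), 8938 lay above their array's 40th percentile (38.3 to 55.28) on at least 2 arrays and were tested, standing for 6541 genes (141 passed through KO arrays alone and 127 through WT arrays alone). A model of 6 group means over 14 arrays was fitted with limma 3.58.1 in R 4.3.3 (8 residual and 4.56 prior degrees of freedom), and probe sets were called at a Benjamini-Hochberg adjusted p under 0.05. The irradiated contrast is the mean of the 30 and 120 min genotype differences. A gene stands in a list by its probe set of highest mean. No set test was run. The fit was tested on simulated data.

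The named genes are Atm, the 24 genes of smallest p with 1 probe set each, up to 4 members per list by size and all members of the muscle and T cell lists. The immunoglobulin and T cell receptor probe sets, Egr1, Ak1, St3gal1 and the genes that passed only on the irradiated arrays were chosen after their values were seen. The members and lists were chosen with earlier results of these data known.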

Additional observations from a re-analysis of the deposited data

Results flagged for a closer look

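The genotype difference on the irradiated arrays differed from that on the untreated arrays for 7 probe sets of 6 genes by limma's test of the difference itself (0.0783% of those tested, adjusted p under 0.05). Barx1, the 1 gene of the 24 named at rest among them, had 12.2, 14.6 and 16.1 on the KO untreated arrays against 64.6, 36.6 and 52.3 on the WT untreated arrays, and 91.2, 63.3, 35.7 and 11.5 on the KO irradiated arrays against 19.1, 16.4, 7.9 and 12 on the WT irradiated arrays. Its KO minus WT difference was -0.85 at rest and 0.69 after radiation, a change of 1.54 ± 0.24 (adjusted p = 0.0391), at intensities near the lower end of the scale. For the other 6 probe sets the genotypes were near each other at rest, with differences between -0.16 and 0.19, and KO was lower after radiation. The irradiated minus untreated values were -3.23 ± 0.34 and -3.54 ± 0.38 for the 2 probe sets of the chemokine Cxcl1, -1.85 ± 0.19 for Nfkbia, the inhibitor of NF-kB, -1.74 ± 0.21 for the early gene Ier3, -1.75 ± 0.22 for Dusp1, a phosphatase of MAP kinases, and -1.56 ± 0.25 for Fos.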

How the results depend on the processing

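Each result was recomputed under 28 or 29 settings, 14 that leave out an array and 14 or 15 others, one of which (without the 3 arrays of lowest correlation) was added after seeing the data. The untreated comparison had 0 calls under 28 of them and 7 without KO untreated B, a range of 0 to 7 over the arrays left out. The irradiated count of 24 became 14 with the replicate block, 9 with the Gapdh ratio as a covariate, 10 without the 3 arrays and 11 to 103 with an array left out (103 without KO IR30 B). The count of 7 for the difference became 4 with the muscle level and 0 with the T cell level as a covariate, 3 without the 3 arrays and 5 to 18 with an array left out (18 without KO IR30 B). The replicate block gave 0 calls at rest and 5 for the difference, and the letters did not pair the arrays: the untreated KO and WT deviations of the same letter correlated at -0.055 (A), -0.034 (B) and -0.024 (C). The T cell median of -0.31 was -0.0729 with the T cell level, -0.19 with the Gapdh ratio and -0.37 to -0.17 with an array left out. The contractile muscle median of 0.90 was 0.0405 with the muscle level and 1.38 with the T cell level as a covariate. The cause of these changes was not tested, except that a covariate built from a list takes up that list's own difference. The 92 gene results at rest gave 2649 values, which leave out the irradiated calls of Igha and Ighm treated above. No probe set was called at rest (smallest adjusted p 0.635 by limma), so keeping their side of the threshold says little. Of the 2649, 2620 kept their sign and side, and 7 became called, all without KO untreated B. Another 22, from 18 genes and none called, changed sign. With the T cell covariate these were Atm 0.44, Cd8b1 0.60, Cd247 0.22, Cd4 -0.0443, Cd6 0.12, Rrm2b 0.0111 and Igfbp4 0.27. With the muscle covariate they were Myh1 -0.12, Tnnt3 -0.0043, Tpm2 -0.0253, Cox6a2 -0.25, Ak1 -0.38, Jchain 0.19, Casq1 -0.19, Ryr1 -0.0576, Myod1 -0.0506, Lat -0.0045 and Trbv13-2 0.0314. Atm was 0.0618 without WT untreated A and without the 3 arrays, and it ranged from -0.45 to 0.0839 (without KO untreated B) with an array left out. Cd4 ranged from -0.0561 (without KO untreated B) to 0.30. Genes near the bottom of the scale, such as Atm, Prkdc and Barx1, are limited by signal over background.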

Other observations

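Some genes of other cell types were uneven over the untreated arrays, and 0 were called. Ltf, the granule protein lactoferrin, had 358.2, 34.1 and 44.5 on the KO untreated arrays and 24.6, 17.7 and 7.6 on the WT untreated arrays, so that KO A stood far above the rest, and the difference was 1.40 ± 0.55 (adjusted p = 0.883). Retn, the adipocyte hormone resistin, had 85.2, 146.7 and 122.8 on the KO arrays against 31.4, 55.1 and 40.5 on the WT arrays, a difference of 1.01 ± 0.32 (adjusted p = 0.753), while Fabp4, the fatty acid carrier of adipocytes, was lower in KO at -0.63 ± 0.21 (adjusted p = 0.813). The 14 adipocyte genes as a list had a median of -0.22, with 1 apart and higher (7.14% beside 5.56% of all probe sets) and 4 apart and lower in KO (28.6% beside 5.1%). Of the androgen-dependent genes of the salivary ducts all 10 tested had differences below 0, with a median of -0.14, and their sum was 44795 to 52271 on the KO untreated arrays and 52627 to 58609 on the WT untreated arrays.

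Xist, the RNA that coats the inactive X chromosome, had 12.2, 52.6 and 143.3 on the KO untreated arrays and 11, 11.4 and 19 on the WT untreated arrays, and Uty, a gene of the Y chromosome, had 54.1, 47.7 and 4.2 on the KO arrays against 42.7, 31.3 and 46.9 on the WT arrays. KO C thus had the highest Xist and the lowest Uty value of the 6, at low intensities. Eif2s3y, also of the Y chromosome, was lowest on KO C too, at 72.1 against 83.1 and 115.8 on KO A and B. The Y genes Kdm5d (25.9) and Sry (99555_at, 17.7) were instead highest on KO C, at levels too low to be tested. A second Sry probe set (99556_s_at) had 42.3 on KO C, inside the range of the others. These genes did not point one way, and the labels give no sex.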
